A study of Mus musculus with 6 samples.

Results

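The nuclear genes for the mitochondrial respiratory chain and ATP synthase were followed in mouse uterus over the day after an injection of estradiol. They were taken as every probe set on the array whose single annotated symbol starts with Nduf, Uqcr, Atp5, Cox4i, Cox5, Cox6, Cox7 or Cox8, or is Sdha, Sdhb, Sdhc, Sdhd, Cycs or Cyc1. This gave 101 probe sets for 73 genes, out of 12422 probe sets that are not array controls and 8251 genes named by a single symbol. A further 10 probe sets whose annotation names several genes, at least 1 of them of this kind, were left out.

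The RNA came from whole uteri of female C57BL/6 mice whose labels give an age of 10 to 11 weeks. The animals had been ovariectomised and were killed 7 days later. One array of pooled RNA was hybridised for each of 6 groups: vehicle, killed 24 h after the injection, and estradiol, injected once under the skin at 0.05 µg per mouse, with uteri taken after 1 h, 3 h, 6 h, 12 h or 24 h. Every group, vehicle included, lacked ovaries. The labels mention 10 mice without saying whether that is per group, and their housing protocol (received at 10 weeks, then 3 weeks of acclimation) does not match the stated age. With 1 array per group there is no spread between replicates, so no difference below was tested and each describes the arrays compared. Only the 24 h comparison is matched to vehicle in time since injection.

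The respiratory chain passes electrons from NADH (complex I) and succinate (complex II) through ubiquinone to complex III, then through cytochrome c to complex IV, which reduces oxygen. The proton gradient built on the way drives ATP synthase, complex V. Most subunits are encoded in the nucleus and imported into mitochondria. In the uterus, estrogen starts growth of an organ that has regressed after ovariectomy, and that growth is energy demanding.

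The values are MAS5 signals, which have no absolute unit and cannot be set against each other between probe sets. A detection floor was set at the 40th percentile of all signals, 142.8, and lower values were raised to it before log2 ratios were taken. A fold whose dimmer array fell short of the floor is a bound and is written "at least". On all 5 arrays for vehicle and 1, 6, 12 and 24 h, 69 of the 101 reached the floor, while 10 reached it on some of them and 22 on none. At gene level, 61 of the 73 genes had a probe set at or above the floor on all 5 arrays and 7 genes had none above it on any of the 5.

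The array labelled 3 h is kept apart from the time course, since its marker genes go against its label. Across all probe sets it correlated with the other 5 arrays at Spearman's rho of 0.843 to 0.857, while those 5 correlated with each other at 0.929 to 0.968 over 10 pairs. Hoxa11, a homeobox gene of the female reproductive tract, had a signal of 14.6 on this array and 2168 to 2662 on the others. Of 11 probe sets for uterus markers, 2 were at or above the floor on it and 9 or 10 on the others. The summed signal of this list went the other way, at 11639 on the array labelled 3 h, against 7525 to 11025 on the others. Of that sum, 11157 was Ltf, lactotransferrin, which neutrophils also make and which had 1412 to 3437 on the others. Leukocyte markers summed to 20432 on the array labelled 3 h, against 4501 to 7442. Of 23 probe sets for skeletal or cardiac muscle markers, 17 reached the floor on that array, against 6 to 8 on the others. Their summed signal was 123368 on it, against 5292 to 8305 on the others. The fast myosin heavy chain Myh4 had 14211 units on its brighter probe set, against 1 to 24 on the other arrays. On the 5 other arrays the uterine markers Esr1, Hoxa10, Hoxa11 and Pgr were each read above the floor by 1 or more probe sets.

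Short stretches of sequence before the annotated start are shown for 4 of these genes. Cycs, Ndufaf4 and Sdhb are among the members highest above vehicle at 6 or 12 h and hold the core letters of a site for NRF1, a transcription factor known to drive nuclear genes of mitochondria. Ndufa6, which was below vehicle at all 4 times and 2.03-fold below at 6 h, holds the same letters in its promoter window. Atp5md, also among the highest at 6 h, had a promoter window without these letters. For Uqcrq, Ndufab1, Uqcrb, Ndufb9 and Ndufv2, also among the highest at 6 or 12 h, no match was found. Some member genes had no window to search, and these may be among them, so absence of the site is not established for them. The 4 genes shown were picked by hand, so they do not link the site to the direction of change. Cox7a2l is the member furthest below vehicle at 12 and 24 h. Capitals mark GCATGCGC, the core of the NRF1 site, as read on the printed strand. The sequences are from RefSeq on GRCm38.p6, are 150 bases long and end at the base before the annotated start.
Cycs (chr6:50566570-50566719, - strand): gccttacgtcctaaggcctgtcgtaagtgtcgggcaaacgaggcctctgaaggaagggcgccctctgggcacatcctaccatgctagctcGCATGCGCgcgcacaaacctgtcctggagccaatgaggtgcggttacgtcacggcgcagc
Ndufaf4 (chr4:24897933-24898082, + strand): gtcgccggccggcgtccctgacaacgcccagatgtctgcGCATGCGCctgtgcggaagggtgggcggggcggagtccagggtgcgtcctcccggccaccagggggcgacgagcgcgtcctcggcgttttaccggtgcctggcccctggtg
Sdhb (chr4:140961121-140961270, + strand): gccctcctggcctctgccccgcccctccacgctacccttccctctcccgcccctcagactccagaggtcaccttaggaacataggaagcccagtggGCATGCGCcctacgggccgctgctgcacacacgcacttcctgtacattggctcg
Cox7a2l (chr17:83514334-83514483, - strand): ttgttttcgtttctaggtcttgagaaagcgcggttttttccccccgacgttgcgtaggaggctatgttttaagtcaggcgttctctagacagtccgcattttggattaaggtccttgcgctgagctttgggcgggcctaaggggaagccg
Promoter windows of 300 bases were on hand for 59 of the 73 genes. Searched on both strands, the NRF1 core GCATGCGC was found in 11 of these 59 genes (18.6%), against 5.3% of 6572 genes named on the array and 3.05% of 27025 genes with a window. CCGGAAG, the core bound by ETS factors such as GABP, was found in 16 of 59 (27.1%), against 17.1% and 9.93%, and AAGATGGCG, the core of a YY1 site, in 5 of 59 (8.47%), against 2.97% and 1.64%. These were searched on both strands too, none of the 3 motifs contains another, and a match is a run of letters, not shown to be bound. Among genes whose brightest probe set lay at or above the floor on all 5 arrays, the 9 with the NRF1 core had a median log2 ratio of 0.56 at 24 h and the 39 without it 0.30. The ranges of those groups overlapped, at -0.24 to 0.76 with the site and -0.52 to 0.86 without it.

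At 24 h, most of the respiratory chain and ATP synthase probe sets were modestly above vehicle. Of the 75 at or above the floor on 1 or both arrays, 62 were higher by any amount and 13 lower, while 48% of all 8018 probe sets tested the same way were higher and 52% lower. At least 1.5-fold, 22 were higher and none lower, against a background of 10.8% higher and 13.1% lower. None reached 2-fold, which 3.49% of all probe sets did upwards and 3.75% downwards. The median log2 ratio was 0.31, with quartiles at 0.15 and 0.60, and the median of all probe sets was -0.02. Over the 71 probe sets at or above the floor on both arrays it was 0.31, and over all 101, with those below the floor on both entered as 0, it was 0.22. With the 1 h array in place of vehicle it was 0.45, beside -0.06 for all probe sets. That array is also from estradiol-treated mice, and the members had a median of -0.05 on it against vehicle. The higher median at 24 h was thus also seen without the vehicle array, but how far its size rests on that array was not tested.

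**Figure D1:**
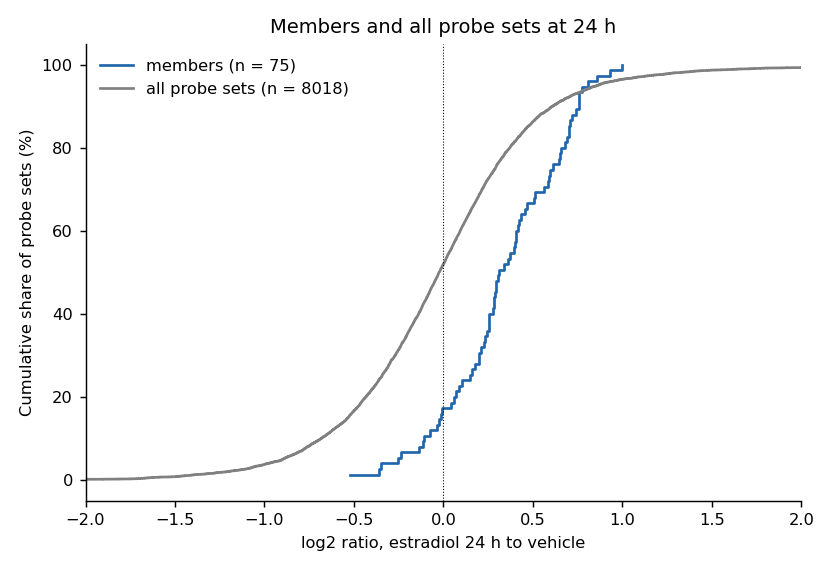
Cumulative share of probe sets (vertical axis, %) by log2 ratio of estradiol 24 h to vehicle (horizontal axis), for the 75 respiratory chain and ATP synthase probe sets measured (blue) and all 8018 probe sets measured (grey, those between -2 and 2 shown). The blue curve lies to the right of the grey one over most of its range, with medians of 0.31 and -0.02, but crosses it near the top and ends at 1.00, below the highest ratios of all probe sets.

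Among probe sets at or above the floor on 1 or both arrays, the median was higher at each later time. Over all 101, with those below the floor entered as 0, it was 0.00 at 1 and 6 h, 0.01 at 12 h and 0.22 at 24 h. For the measured ones at 1 h the median was -0.05, with 29 of 76 probe sets higher and 47 lower (background 50.5% and 49.5%), 1 at least 1.5-fold higher (5.43%), 4 at least 1.5-fold lower (3.79%) and none at 2-fold (1.08% higher, 0.552% lower). At 6 h the median was 0.11, with 44 of 74 higher and 30 lower (46.8% and 53.1%). At least 1.5-fold, 12 were higher at 6 h, a share near the background of 15.7%, and 6 were lower (19.3%), and 5 were 2-fold higher and 3 lower (6.68% and 8.39%). At 12 h the median was 0.22, with 52 of 74 higher and 22 lower (47.2% and 52.8%). At least 1.5-fold, 17 were higher (16.5%) and 4 lower (18.1%), and at 2-fold 5 were higher (6.69%) and 1 lower (7.25%). All 4 comparisons share the vehicle array. From array to array the median log2 change was 0.15 for 6 h over 1 h, 0.12 for 12 h over 6 h and 0.11 for 24 h over 12 h, beside -0.09, 0.02 and 0.02 for all probe sets.

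Among the 69 probe sets measured on all 5 arrays, the highest signal fell on the vehicle array for 3 (4.35%), the 1 h array for 9 (13%), the 6 h array for 8 (11.6%), the 12 h array for 14 (20.3%) and the 24 h array for 35 (50.7%). Of 6488 probe sets of any kind measured on all 5 arrays, it fell on vehicle for 22.1%, 1 h for 22.2%, 6 h for 20.9%, 12 h for 17.7% and 24 h for 17.1%. The later arrays also differed from vehicle in cell type markers. Summed marker signal at 24 h was 68871 for smooth muscle, against 50824 with vehicle (8 of 8 probe sets at or above the floor on both arrays), 16978 against 12153 for epithelium (11 of 13 on both) and 93932 against 67200 for stroma (15 of 16 on both). For adipocytes it was 5018 at 24 h, against 14107 with vehicle (7 of 9 against 8 of 9), for endothelium 5146 against 7086 (9 of 10 on both) and for leukocytes 6204 against 6679 (8 of 14 on both). The stroma list was split at 24 h. Of its 15 measured probe sets, 5 were at least 1.5-fold higher (10.8% of all probe sets) and 5 at least 1.5-fold lower (13.1%). A sum weighs its brightest probe sets most. Markers of pancreas acinar cells, a tissue foreign to the uterus, had a summed signal of 787 at 24 h (1 of 3 probe sets at or above the floor), against 2866 with vehicle (3 of 3). On the arrays for 1, 6 and 12 h that sum was 405 to 1133, so it was highest on the vehicle array, which all these comparisons share. The part of these markers in the results was not tested. In whole uteri, a change in the share of a cell type and a change in RNA per cell cannot be told apart.

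**Figure D2:**
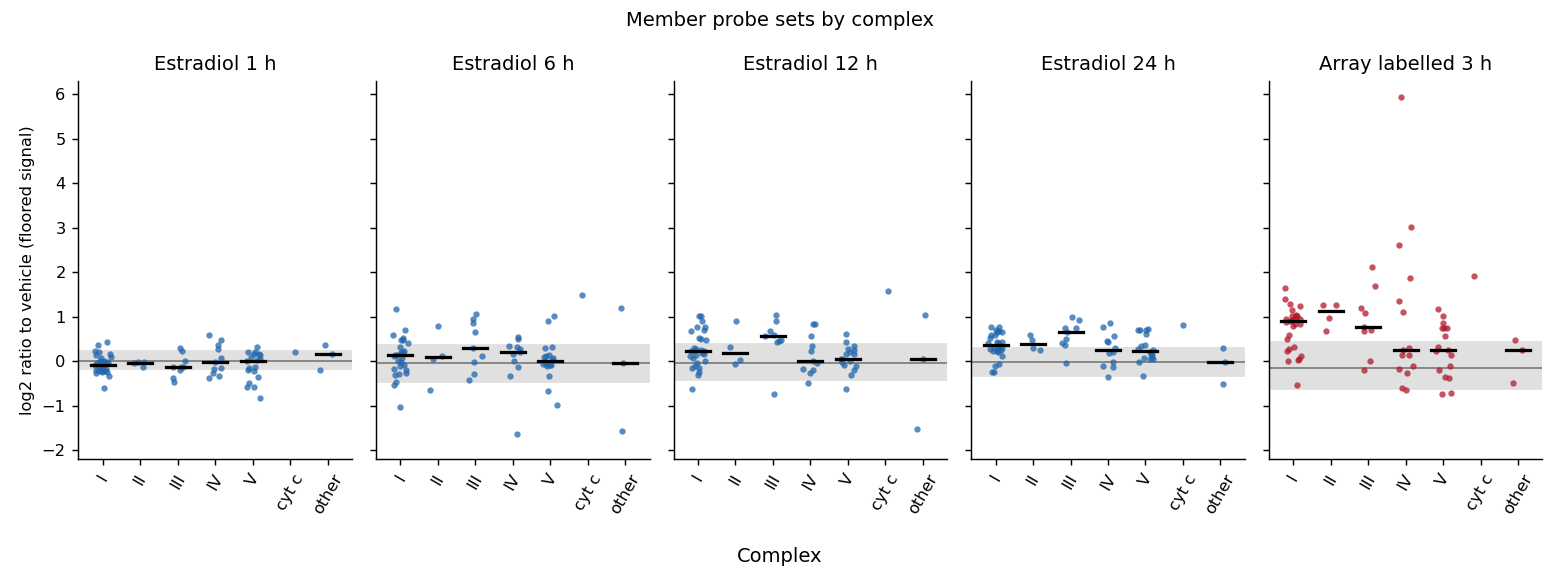
Log2 ratio to vehicle (vertical axis) of each probe set at or above the floor on 1 or both arrays, by complex (horizontal axis; cyt c is Cycs, other is Ndufaf1, Ndufaf4 and Cox7a2l), in a panel for each estradiol time and for the array labelled 3 h. Black bars are medians of groups with over 1 probe set, the grey line is the median of all probe sets and the grey band their quartiles; at 24 h the medians of complexes I to V lie between 0.23 and 0.66.

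Complex III had the highest median of the 5 complexes at 6, 12 and 24 h, at 0.30, 0.57 and 0.66 over 9 probe sets. Uqcrq, a small subunit near the ubiquinone site, had signals of 2187 (vehicle), 1897 (1 h), 4533 (6 h), 4454 (12 h) and 4360 (24 h). It was level at about the same height on the last 3 arrays, 2.07-fold, 2.04-fold and 1.99-fold above vehicle. Uqcrb, another small subunit, had 1710 (vehicle), 1993 (1 h), 3320 (6 h), 2744 (12 h) and 3253 (24 h). The core protein Uqcrc2 was 1.87-fold above vehicle at 12 h, where Uqcrb was 1.60-fold. Uqcrc1, the other core protein, was 1.42-fold and Uqcrc2 1.58-fold above vehicle at 24 h, and the small subunits Uqcr10 and Uqcr11 1.32-fold and 1.69-fold. The exception was Uqcrh, the hinge protein between the complex and cytochrome c, at 3151 (vehicle), 2875 (1 h), 2351 (6 h), 1883 (12 h) and 3078 (24 h). It was 1.67-fold below vehicle at 12 h and back within 1.02-fold at 24 h. Cyc1, the haem-bearing cytochrome of the complex, was read by a pair of probe sets that disagreed at 6 h, with log2 ratios of 0.85 and -0.28, and had the same sign at 12 h (0.60 and 0.46) and 24 h (0.36 and 0.74).

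Cycs, cytochrome c itself, had the highest ratio of all 101 probe sets at 6 and 12 h. With vehicle below the floor, its signals were 114 (vehicle), 164 (1 h), 402 (6 h), 424 (12 h) and 250 (24 h). It was at least 2.81-fold above vehicle at 6 h, at least 2.97-fold at 12 h and at least 1.75-fold at 24 h. Cytochrome c genes have many processed copies in the genome, and what else this probe set detects is not known from the files.

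In complex I, 24 of 28 measured probe sets were above vehicle at 24 h (48% of all probe sets) and 4 below (52%). The median was 0.35, after -0.09 (1 h), 0.13 (6 h) and 0.22 (12 h). The acyl carrier protein Ndufab1, which also serves mitochondrial fatty acid synthesis, had 837 (vehicle), 873 (1 h), 1884 (6 h), 1700 (12 h) and 1016 (24 h), a peak at 6 h of 2.25-fold. Ndufb9, an accessory subunit of the membrane arm, had 875 (vehicle), 1022 (1 h), 1214 (6 h), 1775 (12 h) and 1480 (24 h). Ndufb6, of the same arm, was 1.69-fold above vehicle at 24 h and Ndufa9, at the ubiquinone end, 1.63-fold. The core subunits, which carry the flavin and iron-sulfur clusters or stand close to them, differed in size of change. Ndufv2 was 1.87-fold above vehicle at 12 h by its brighter probe set and 1.10-fold by the other. Ndufs1 and Ndufs3 were 1.22-fold and 1.19-fold above vehicle at 24 h, and Ndufv1, which binds NADH, 1.17-fold after being 1.08-fold below at 6 and 12 h. Over the 5 probe sets of these core genes the median at 24 h was 0.25, and over 23 of accessory subunits 0.40.

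Ndufa6, an accessory subunit, ran the other way, with 632 (vehicle), 544 (1 h), 311 (6 h), 409 (12 h) and 536 (24 h). It was 2.03-fold below vehicle at 6 h, then 1.55-fold and 1.18-fold below at the next times. Ndufa2 was lowest at 1 h (981, against 1495 with vehicle) and Ndufv3 was 1.23-fold below at 6 h and 1.31-fold above at 24 h. Ndufc1 had no steady direction, at 733 (vehicle), 777 (1 h), 588 (6 h), 891 (12 h) and 677 (24 h). Both probe sets of Ndufb2 that were measured on all 5 arrays lay above vehicle, at log2 ratios of 0.48 and 0.59 at 6 h and 0.51 and 0.65 at 24 h. Ndufa10 was 1.33-fold above vehicle at 24 h.

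Of the assembly factors for complex I, Ndufaf4 had 155 (vehicle), 201 (1 h), 353 (6 h), 317 (12 h) and 190 (24 h). Its signal was 2.27-fold above vehicle at 6 h, 2.04-fold at 12 h and 1.22-fold at 24 h, the same early and passing shape as Ndufab1. The vehicle signal was close to the floor of 142.8, and the other Ndufaf4 probe set was below the floor on every array. Ndufaf1 stayed between 324 and 383 on the 5 arrays.

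Complex II has 4 subunits, and all 4 lay above vehicle at 24 h (48% of all probe sets), with log2 ratios of 0.26 to 0.59. Sdhb, the iron-sulfur subunit, had 1442 (vehicle), 1412 (1 h), 2490 (6 h), 2713 (12 h) and 2173 (24 h). Sdha, the flavoprotein that oxidises succinate, had 468 (vehicle), 462 (1 h), 296 (6 h), 479 (12 h) and 575 (24 h). At 6 h these partners thus stood on opposite sides of vehicle, Sdhb 1.73-fold above and Sdha 1.58-fold below. The membrane anchors Sdhc and Sdhd were 1.38-fold and 1.20-fold above vehicle at 24 h.

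**Figure D3:**
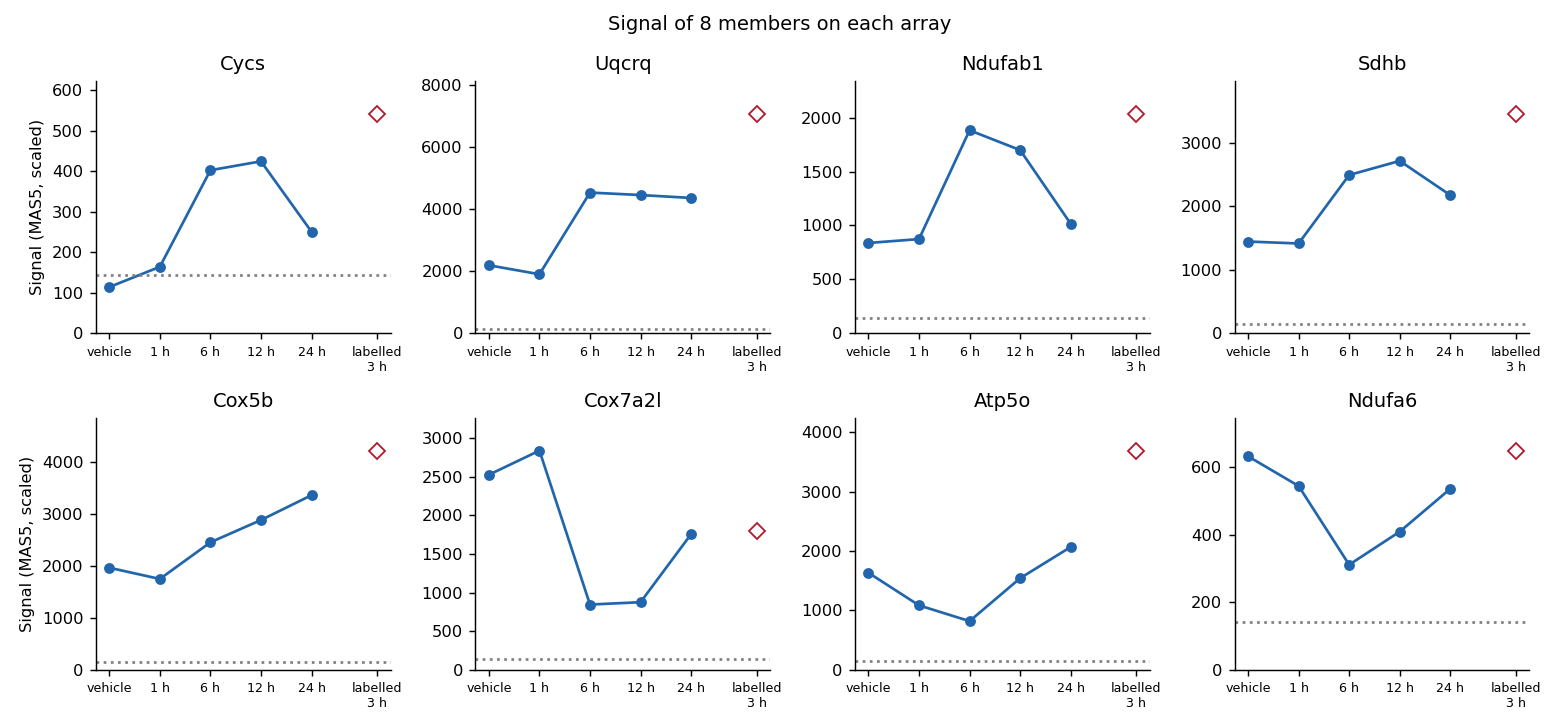
Scaled MAS5 signal (vertical axes, each from 0) of 8 members by array (horizontal axes): vehicle and 1, 6, 12 and 24 h after estradiol (blue, joined) and the array labelled 3 h (open red diamond, apart). The dotted line is the floor of 142.8; Cycs, Uqcrq, Ndufab1 and Sdhb are high at 6 and 12 h, Cox5b is highest at 24 h among the joined arrays, and Cox7a2l, Atp5o and Ndufa6 are lowest at 6 h among them.

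Of the 5 complexes, complex IV had the largest share of probe sets below vehicle at 24 h. Of its 12 measured ones, 8 were above (48% of all probe sets) and 4 below (52%), with a median of 0.25. Those 4 were both probe sets of Cox4i1, which read close to the floor, and 1 each of the testis isoforms Cox6b2 and Cox8c. Cox5b, the zinc-binding subunit, had 1964 (vehicle), 1748 (1 h), 2453 (6 h), 2882 (12 h) and 3360 (24 h). Cox7b had 1136 (vehicle), 1126 (1 h), 1426 (6 h), 2032 (12 h) and 2061 (24 h). Both were highest on the last array, at 1.71-fold and 1.81-fold above vehicle. Cox6a1 and Cox7a2, the general forms of their subunits, were 1.48-fold and 1.34-fold above vehicle at 24 h. Cox6c was 1.23-fold above on the only 1 of its 3 probe sets above the floor. Cox6b1 was 1.37-fold above, on a probe set that also read close to the floor, at 195.1 with vehicle and 267.5 at 24 h. Cox4i1 was 1.28-fold and 1.10-fold below vehicle at 24 h on its pair of probe sets, which read only 166 and 196 there. Cox5a and Cox8a were below the floor on every array. The testis isoform Cox8c had 1010 to 1536 after estradiol, against 1274 with vehicle, on 1 probe set, while its other probe set read 2.7 to 10.9 on all 6 arrays, far below the floor. The testis isoform Cox6b2 was below the floor at 6 h (138), against 443 with vehicle, at least 3.10-fold lower on its brightest probe set. Its other 2 probe sets were below the floor on these arrays, apart from a reading of 165 at 24 h on 1 of them.

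Cox7a2l, which belongs to the Cox7a family but acts in joining complexes III and IV into supercomplexes, was the member furthest below vehicle at 12 and 24 h. Its human counterpart is known as an estrogen-responsive gene. Its signals were 2527 (vehicle), 2840 (1 h), 845 (6 h), 875 (12 h) and 1757 (24 h). The 6 h and 12 h arrays stood well below the others, 2.99-fold and 2.89-fold below vehicle, and the 24 h array was 1.44-fold below. Every other measured member with a signal above 1000 on the vehicle array stayed within 2.07-fold of it, the value of Uqcrq, at these 4 times.

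In complex V, 16 of 18 measured probe sets were above vehicle at 24 h (48% of all probe sets) and 2 below (52%). The median was 0.23, after 0.01 (1 h), 0.00 (6 h) and 0.06 (12 h). Atp5a1, the alpha subunit of the catalytic head, had 5385 (vehicle), 4826 (1 h), 5798 (6 h), 6492 (12 h) and 6956 (24 h). Atp5c1, the gamma subunit of the rotor, had 2764 and 3452 at 24 h, against 2322 and 3090 with vehicle, on its pair of probe sets. Atp5o, which ties the head to the outer stalk, had 1632 (vehicle), 1084 (1 h), 818 (6 h), 1540 (12 h) and 2066 (24 h), and Atp5e, the epsilon subunit, 1418 (vehicle), 943 (1 h), 886 (6 h), 1475 (12 h) and 2303 (24 h). Both were below vehicle at 1 and 6 h, at 6 h by 1.99-fold for Atp5o and 1.60-fold for Atp5e, and above it at 24 h. Atp5md, a small subunit linked to dimers of the enzyme, was 1.77-fold below vehicle at 1 h (1795 against 3178) and 1.86-fold above at 6 h (5922). Atp5mpl, another small subunit, was 1.52-fold above at 12 h and 1.63-fold at 24 h. Of the ring-forming c subunits, Atp5g2 was 1.53-fold above vehicle at 24 h on its brighter probe set, and Atp5g1 had 169 at 24 h, against 164 with vehicle, on its better measured one. A second Atp5g1 probe set was at least 2.03-fold above vehicle at 6 h, where the first was 1.05-fold below. Atp5d, the delta subunit, shows the limits of single probe sets: at 24 h the 4 measured on all 5 arrays ranged from -0.35 to 0.72 on the log2 scale.

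The muscle forms of complex IV set the array labelled 3 h apart within this gene group. Cox6a2, the heart and skeletal muscle form of subunit VIa, had a signal of 8791 on the array labelled 3 h, against 53 to 137 on the other 5, all below the floor. It was at least 61.6-fold above vehicle there. Cox7a1, the muscle form of subunit VIIa, had 1149, against 6 to 37 on the others, at least 8.05-fold above vehicle. Cox8b, a form of subunit VIII found in mouse muscle and brown fat, had 2128 on its brighter probe set, against 290 to 525. The general forms did not share this, since Cox6a1 had 4931 and Cox7a2 2694 on that array, against 5568 and 2904 with vehicle. The muscle marker values of this array, given above, stand beside these. Brown fat markers were at or above the floor on 1 of 6 probe sets there, and on 1 to 3 on the other arrays, so this count does not set it apart. Their summed signal was 322, against 2636 to 5703 on the other arrays. Dio2 was the only gene of this list with a signal of at least 352.65 on any of the other 5 arrays. The part of brown fat in the Cox8b values was not tested.

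**Figure D4:**
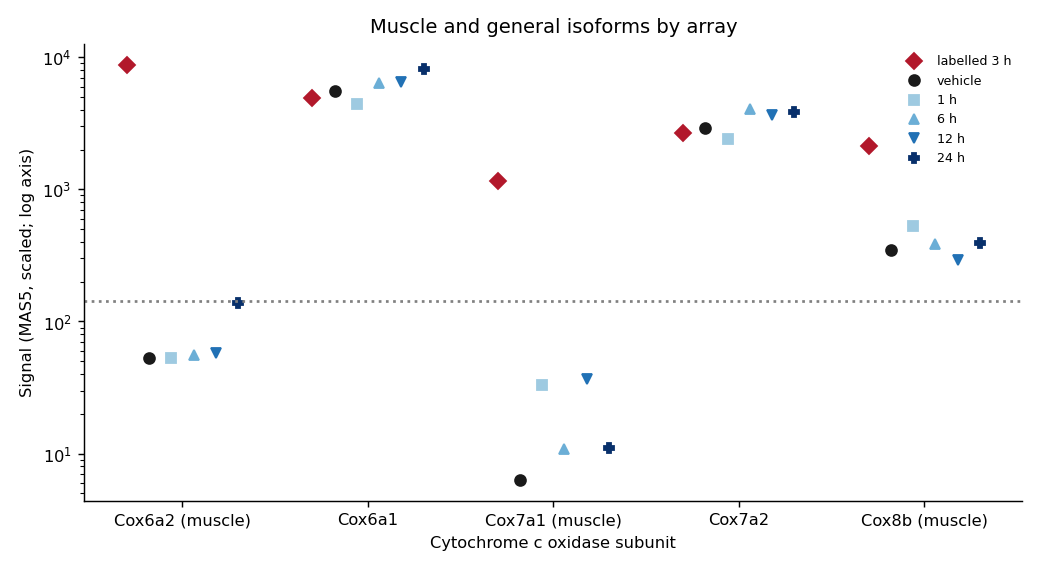
Scaled MAS5 signal (vertical log axis) of muscle and general isoforms of complex IV subunits (horizontal axis) on the array labelled 3 h (red diamonds), vehicle (black) and 1, 6, 12 and 24 h after estradiol (light to dark blue). The dotted line is the floor of 142.8; the muscle isoforms Cox6a2 and Cox7a1 are above it only on the array labelled 3 h, while Cox6a1 and Cox7a2 are above it on all 6 arrays.

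On the array labelled 3 h, 63 of 78 measured probe sets were above vehicle (background 42.2%) and 15 below (57.8%), with a median of 0.74 beside -0.15 for all probe sets. At least 1.5-fold, 43 were higher (20.2%) and 4 lower (27.3%), and at 2-fold 24 were higher (11.8%) and none lower (12.9%). Without Cox6a2, Cox7a1 and Cox8b the median was 0.69 and 20 of 74 were 2-fold higher. Uqcrc2 had 3017 there, against 701 with vehicle, Ndufb9 2743 against 875 and Sdha 1128 against 468. Scaling the arrays to the same median moved ratios of signals above the floor on this array up by 0.13 on the log2 scale.

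Genes of the mitochondrial ribosome, of protein import and of assembly had their highest medians at 12 h, and the respiratory chain had its own at 24 h. The assembly list shares Ndufaf1 and Ndufaf4 with the respiratory chain set. The difference between these lists was not tested. The 76 probe sets of mitochondrial ribosomal proteins had medians of -0.06 (1 h), 0.33 (6 h), 0.51 (12 h) and 0.28 (24 h), with 26 of 65 measured at least 1.5-fold higher at 12 h and 1 lower (16.5% and 18.1% of all probe sets). Those of protein import had 0.53 (6 h), 0.59 (12 h) and 0.22 (24 h), with 11 of 22 at least 1.5-fold higher at 12 h and 1 lower, beside the same shares of all probe sets. Tomm40, the channel of the outer membrane, had 179 (vehicle), 702 (6 h), 521 (12 h) and 220 (24 h), and Timm23, that of the inner membrane, 1155 (vehicle), 3528 (6 h), 3121 (12 h) and 1515 (24 h). Mitochondrial chaperones and proteases had medians of 0.47, 0.39 and -0.13 at 6, 12 and 24 h over 8 probe sets, of which 2 stood 1.5-fold or more above vehicle and 1 below it at both 6 h (15.7% and 19.3% of all probe sets) and 12 h (16.5% and 18.1%). The highest of them, Hspe1, the cochaperonin of the matrix, was 3.26-fold above vehicle at 6 h and 3.28-fold at 12 h. Assembly factors had medians of 0.39, 0.44 and 0.15 at 6, 12 and 24 h, and at 24 h 3 of 15 stood 1.5-fold or more above vehicle (10.8% of all probe sets) and 3 below it (13.1%). The complex III factors were split at 24 h: Uqcc2 had 816, against 389 with vehicle, Uqcc1 264 against 485 and Uqcc3 215 against 394.

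The enzymes that feed the chain were divided. The citric acid cycle and pyruvate dehydrogenase genes had medians of 0.32 (6 h), 0.30 (12 h) and 0.13 (24 h), with citrate synthase (Cs) at 3055 at 12 h, against 1852 with vehicle, and malate dehydrogenase (Mdh2) at 5480 against 3278. Isocitrate dehydrogenase Idh2 stood at 581 at 6 h, against 1410 with vehicle. Fatty acid oxidation genes lay below vehicle, with a median of -0.49 at 6 h, 8 of 17 at least 1.5-fold lower and none higher (19.3% and 15.7% of all probe sets), then -0.28 at 12 h and -0.01 at 24 h. Acaa2, the last thiolase of the pathway, had 895 at 6 h, against 3261 with vehicle, the acyl-CoA dehydrogenase gene Acadm 594 against 2020, and Cpt1a, which commits fatty acids to import, 761 against 2292. Adipocyte markers were lower on the same array, with a summed signal of 7692, against 14107 with vehicle, and their part was not tested.

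Glycolysis genes had medians of 0.12, 0.27 and 0.54 at 6, 12 and 24 h, with 7 of 17 at least 1.5-fold higher at 24 h and 1 lower (10.8% and 13.1% of all probe sets). The glucose transporter Slc2a1 had 623 at 24 h, against 153 with vehicle. The vacuolar proton pump, a relative of ATP synthase outside mitochondria, had medians of 0.03, 0.12 and 0.13. Carriers and channels of the mitochondrial membranes had medians of -0.01, 0.17 and 0.08 at 6, 12 and 24 h, and at 24 h 2 of 23 stood 1.5-fold or more above vehicle (10.8% of all probe sets) and 4 below it (13.1%). The highest of them, Slc25a5, which exchanges ADP for ATP across the inner membrane, had 619 (vehicle), 739 (1 h), 1857 (6 h), 2137 (12 h) and 1719 (24 h) on its brightest probe set, and its relative Slc25a4 was 1.27-fold above vehicle at 24 h. Among regulators of mitochondrial genes, Pprc1, a coactivator that works with NRF1, had 142 (vehicle), 152 (1 h), 524 (6 h), 391 (12 h) and 159 (24 h). Myc, a factor for growth genes, had 430 at 1 h, against 215 with vehicle. The list of regulators as a whole had medians of 0.22, 0.10, 0.19 and 0.16 at 1, 6, 12 and 24 h, with 3, 5, 3 and 0 of 14 or 15 measured probe sets at least 1.5-fold higher and 1, 2, 1 and 2 lower. Over all probe sets these shares were 5.43%, 15.7%, 16.5% and 10.8% higher and 3.79%, 19.3%, 18.1% and 13.1% lower. Coenzyme Q synthesis genes had -0.21 and -0.08 at 1 and 6 h over 6 probe sets and 0.42 and 0.45 at 12 and 24 h over 7, and oxidant defence genes -0.26, -0.21 and 0.28 at 6, 12 and 24 h over 11.

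**Figure D5:**
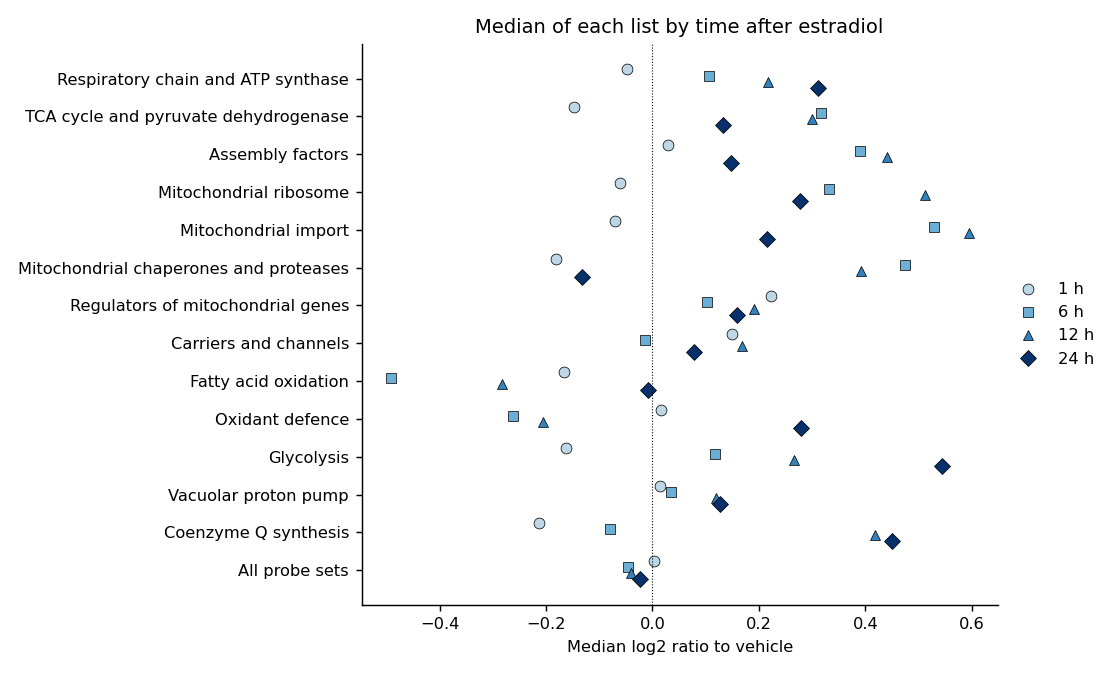
Median log2 ratio to vehicle (horizontal axis) of the respiratory chain and ATP synthase, of related gene lists and of all probe sets (rows), at 1 h (circles), 6 h (squares), 12 h (triangles) and 24 h (diamonds) after estradiol. The respiratory chain medians run from -0.05 at 1 h to 0.31 at 24 h, while import and mitochondrial ribosome genes have their highest medians at 12 h, 0.59 and 0.51.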

How the data were processed

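The deposited table holds 1 MAS5 signal intensity per probe set and array, on a linear scale, made by the authors with MAS5, per the submitters' processing notes; its version, background settings and detection calls are not given in the sources used here. From the values, every array had been scaled to a 2% trimmed mean of 500.2 to 500.3. The 66 control probe sets were left out and each array was rescaled to the mean of the trimmed means. Signals below the 40th percentile (142.8) were raised to it and log2 was taken. The number of arrays limits the precision. Of 12422 probe sets, 10833 have 1 gene symbol in the platform annotation, 396 several and 1193 none; all 101 member symbols are the same in RefSeq for GRCm38.p6. Python 3.11.15, pandas 2.3.3 and NumPy 2.4.6 were used. The calculation was tested on simulated data. No test, p-value or SD is possible with 1 array per group, so counts past 1.5-fold and 2-fold are given beside the shares of all probe sets at or above the floor on 1 or both arrays. Named members are those 2-fold from vehicle at 1, 6, 12 or 24 h, the 6 highest and 6 lowest at each of these times with a brighter signal of at least 352.65 (60th percentile), the brightest of each complex, isoform families, complex II, Cyc1, Cycs and genes with several probe sets; from each related list, up to 4 with the largest difference. Ndufa9, Ndufs1, Ndufs3, Uqcrc1, Uqcrc2, Atp5mpl, Uqcc3 and the marker genes Esr1, Hoxa10, Hoxa11 and Myh4 were added after their values were seen. Members, lists and thresholds were chosen with earlier results of these data known. Alternatives were another scaling, floor, value per gene, comparison array, member set, probe set type and filter.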

Additional observations from a re-analysis of the deposited data

How the results depend on the processing

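No paired analysis was possible because each group has 1 array, and for the same reason no replicate could be left out. The 5 medians and 10 counts for the respiratory chain and ATP synthase were recomputed under 9 alternatives (8 at 1 h) and 3 more chosen after seeing the data (both filters on low values and the 1 h array in place of vehicle). A median counted as moved when it changed by 0.1 or more on the log2 scale, and a count when it changed by over 1.5 times. Of the recomputed medians, 50 changed by less and 8 moved, and of the counts 104 and 12; no median reversed. Under the 9 the median ranged from 0.30 to 0.40 at 24 h, 0.17 to 0.29 at 12 h, 0.06 to 0.20 at 6 h, -0.14 to -0.03 at 1 h, and, for the array labelled 3 h, 0.66 to 0.85. With no filter on low values, which enters probe sets below the floor as 0, it was 0.00 at 6 h (0.0000), 0.01 at 12 h (0.0053), and 0.28 for the array labelled 3 h. With the 1 h array in place of vehicle it was 0.34 at 12 h and 0.45 at 24 h. On the array labelled 3 h it was 0.85 with array medians made equal and 0.84 with 1 value per gene, by the brightest probe set (0.8439) or by the median of probe sets (0.8439). Probe sets 1.5-fold from vehicle at 1 h, 5 of 76 measured, were 8 of 90 with the floor at the 20th percentile. Leaving out probe sets of non-unique type kept 64 of 101. The 1.5-fold counts were then 2 of 51 measured at 1 h, 10 of 50 at 6 h and 13 of 50 at 24 h. In the main setting they were 5 of 76, 18 of 74 and 22 of 75. The 2-fold count at 6 h was 8 of 74, and 3 of 64 with the floor at the 60th percentile. It was 5 of 59 genes with the median of probe sets per gene. With only probe sets at or above the floor on both arrays it was 5 of 69. At 12 h the 2-fold count was 6 of 74, and 10 of 90 with the floor at the 20th percentile. At 24 h it was 0 of 75, 1 of 75 with array medians made equal and 4 of 90 with the 20th percentile floor. It was 1 of 78 against the mean of the floored log2 values of vehicle and 1 h, and 5 of 78 against the 1 h array. The share of all probe sets past these folds was not recomputed under the alternatives. The cause of these moves was not tested beyond what each setting does by construction. Signals close to the floor, such as those of Cycs and Ndufaf4 with vehicle, Cox4i1, Cox6b1 and Atp5g1, give the least certain ratios.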
